A study of Homo sapiens with 6 samples.

Results

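The 36 genes described here make cholesterol and fatty acids, move cholesterol into and through the cell, or control both processes through the SREBP transcription factors and the liver X receptors. They were chosen by name, as genes of the pathway, with earlier results of these data known. Each was represented by the brightest of its probes on the array. Of the 36 genes, 34 had a probe annotated to them alone, and 31 were tested among 9944 genes. FDFT1, which makes squalene, and NR1H2, a liver X receptor, were not analysed here.

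The cells were HEK293, an established line from human embryonic kidney. The control group, 3 samples, was kept for 3 days in complete medium. The treated group, 3 samples, had the same 3 days in medium with all-trans retinoic acid (tRA), a vitamin A derivative that activates retinoic acid receptors, and N6,2'-O-dibutyryl-cAMP (cAMP), a form of cyclic AMP that enters cells. Both agents were given together, no dose is stated in the sources used here, and no sample had 1 agent alone.

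Cells build cholesterol from acetyl-CoA through mevalonate, farnesyl diphosphate, squalene and lanosterol. SREBP proteins are held in the endoplasmic reticulum by SCAP and the INSIG proteins while sterols are plentiful. When sterols run low, SREBP is cut, enters the nucleus and turns on the genes of sterol synthesis together with INSIG1. SREBF1 mainly serves the fatty acid genes and SREBF2 mainly the sterol genes, and liver X receptors respond to oxysterols by raising SREBF1 and the cholesterol exporter ABCA1.

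Each sample was hybridized to 1 Illumina bead array, and levels are log2 intensities after background correction and quantile normalization. Differences are the treated mean minus the control mean on that scale, tested with limma over all 9944 genes with Benjamini-Hochberg adjustment. A gene was counted as called at an adjusted p under 0.05. Between 14792 and 16103 of 48803 probes were detected per array (detection p under 0.01), and 3 arrays per group limit the precision. Whether each sample was a culture of its own is not given in the labels, and the spread that enters the p-values may therefore be technical. The array codes share the same number, with letters A to C in control and D to F in treated samples. If these are positions on the same chip, which is not stated, position and treatment cannot be told apart. The treatment check genes CYP26A1, RARB, DHRS3, NR4A2, PDE4D and DUSP1 were all higher with treatment, by 1.04 to 5.66 on the log2 scale. Of 8 genes that mark HEK293, 7 had a probe and of these EYA1, NEFL, VIM, KRT8 and KRT18 were detected on all 6 arrays, while PAX2 and NEFM were detected on 0. Their summed intensity was 46883 to 52867 in control and 35740 to 39284 in treated samples, most of it from VIM. VIM differed by -0.50 and EYA1 by -1.05 (limma, adjusted p = 0.0565 and 0.00850), KRT8 by 0.26 with the treated arrays all higher (adjusted p = 0.370), NEFL by -0.14 and KRT18 by -0.02. All 4 liver markers lacked detection on the control arrays, with ALB, APOA1 and APOB at 0 arrays in both groups. The summed intensity of 6 fibroblast markers was 5958 to 6489 in control and 2305 to 3193 in treated samples, with COL1A2 and DCN detected on 0 arrays, and that of 3 endothelial markers 569 to 698 and 282 to 571, with CDH5 at 0 arrays. Their part in the values below was not tested.

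No gene of cholesterol or fatty acid synthesis, uptake or control passed the threshold after 3 days with tRA and cAMP. Of the 31 tested genes 0 were higher and 0 lower in limma, where 2.56% of all genes tested were called (1.11% higher and 1.46% lower). All 31 were detected on all 6 arrays. In such bulk RNA, fewer cells of a type and less RNA per cell cannot be told apart. The 95% interval of the difference stayed within 2-fold in either direction for 31 of the 31 genes and within 1.5-fold for 25 (80.6%). Over all genes tested these shares were 96.6% and 75.5%, so such bounds are not particular to the members. The lowest bound was -0.79 on the log2 scale (SCARB1) and the highest 0.56 (SREBF1).

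At an unadjusted p under 0.05, 5 of the 31 genes were lower and 0 higher, against 7.36% of all genes lower and 6.88% higher. They were LSS, CYP51A1, SCD, SQLE and INSIG1, in order of p. In the same 5 genes all treated arrays lay below all control arrays, which was so for 9.70% of all genes, and 0 members lay apart on the higher side, against 9.20%. The median difference of the 31 genes was -0.15, with 18 below 0 (58.1%), against a median of 0.00 and 49.6% below 0 over all genes tested. Leaving out control replicate 1, 2 or 3 gave -0.07, -0.09 and -0.09. Leaving out treated replicate 1, 2 or 3 gave -0.12, -0.03 and -0.12. The count of 5 was 2 to 6 with single arrays left out, and the genes behind it changed. The 6, without control replicate 3, were LSS, CYP51A1, SCD, FDPS, HMGCS1 and SREBF2, so SQLE and INSIG1 were not among them. SREBF2 was tested there through the 2 remaining control arrays alone. The 4 without control replicate 2 were LSS, CYP51A1, MVK and SCARB1. The count was 3 without treated replicate 1, 2 or 3, and 2 without control replicate 1. The lower count was also 3 with median scaling and with no normalization between arrays. The higher count was 0 in the chosen setting, but 1 with the mean of probes and 1 without control replicate 3. SREBF1, higher with treatment, had an unadjusted p under 0.05 in 2 of 17 alternatives. The plot of differences by role shows every tested gene.

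**Figure D1:**
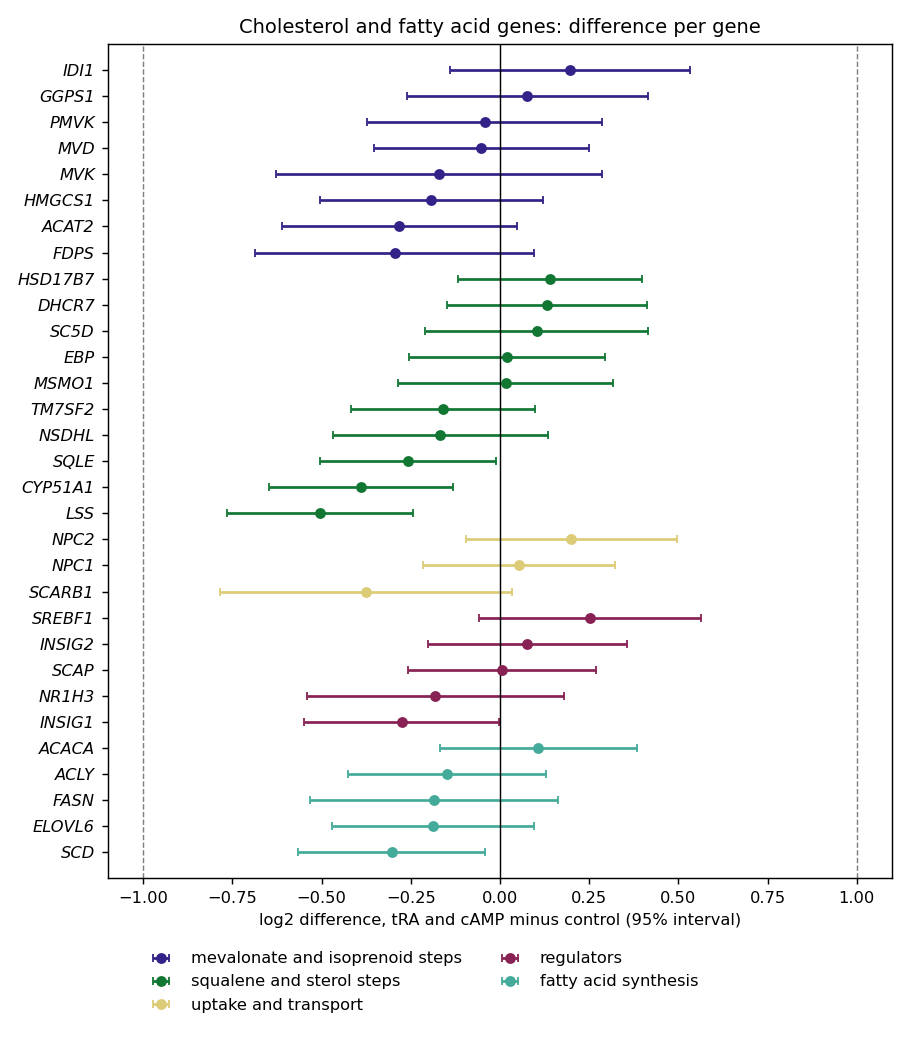
Log2 difference between treated and control samples for each of the 31 tested genes (points) with its 95% interval (bars), grouped and coloured by role; dashed lines mark 2-fold. No interval reaches a dashed line, and those of LSS, CYP51A1, SCD, SQLE and INSIG1 lie wholly below 0.

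Promoters are shown for 4 of the 6 members with the smallest p, because SREBP is known to act on such genes from sites close to the start. For the others, SQLE and SCARB1, no window was available. Each window runs from 250 bases before to 50 bases after the start of the gene, with the first transcribed base at position 251, as given by RefSeq for GRCh38.p14. LSS lies at chr21:46228725-46229024 and CYP51A1 at chr7:92134428-92134727, both on the minus strand. SCD lies at chr10:100346983-100347282 and INSIG1 at chr7:155297628-155297927, both on the plus strand. Capitals mark matches, on either strand, to CCAAT (the motif of NF-Y, a known partner of SREBP), CACNCCAC (the core of the SREBP motif) and TGACG (the half-site of the cAMP response element).
LSS: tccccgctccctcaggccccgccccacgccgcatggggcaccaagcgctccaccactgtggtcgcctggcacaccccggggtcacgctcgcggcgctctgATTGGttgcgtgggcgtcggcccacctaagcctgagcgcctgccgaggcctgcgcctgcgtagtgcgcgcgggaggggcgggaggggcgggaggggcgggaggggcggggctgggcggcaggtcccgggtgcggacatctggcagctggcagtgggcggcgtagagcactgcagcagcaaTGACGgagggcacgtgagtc
CYP51A1: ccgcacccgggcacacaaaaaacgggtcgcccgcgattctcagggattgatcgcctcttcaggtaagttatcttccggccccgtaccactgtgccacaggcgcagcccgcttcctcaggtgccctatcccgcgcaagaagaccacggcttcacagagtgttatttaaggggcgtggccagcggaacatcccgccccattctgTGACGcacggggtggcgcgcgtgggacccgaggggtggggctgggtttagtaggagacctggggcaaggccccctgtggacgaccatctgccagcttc
SCD: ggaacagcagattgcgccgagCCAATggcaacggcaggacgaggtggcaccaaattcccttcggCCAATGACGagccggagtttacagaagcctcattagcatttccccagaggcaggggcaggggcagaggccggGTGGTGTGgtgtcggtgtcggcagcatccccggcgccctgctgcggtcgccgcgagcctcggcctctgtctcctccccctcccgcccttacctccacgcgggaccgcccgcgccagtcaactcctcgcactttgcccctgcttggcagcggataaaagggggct
INSIG1: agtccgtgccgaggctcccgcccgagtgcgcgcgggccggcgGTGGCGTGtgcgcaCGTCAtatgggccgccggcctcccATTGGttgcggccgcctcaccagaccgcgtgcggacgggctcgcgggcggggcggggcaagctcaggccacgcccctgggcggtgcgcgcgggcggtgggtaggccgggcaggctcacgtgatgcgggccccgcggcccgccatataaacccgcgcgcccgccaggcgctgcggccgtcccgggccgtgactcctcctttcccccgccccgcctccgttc

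The LSS window held CCAAT at position 101 on the opposite strand and TGACG at position 281. CYP51A1 held TGACG at position 203 and neither of the other motifs. SCD held CCAAT at positions 22 and 65, the second overlapping TGACG at position 69, and CACNCCAC at position 137 on the opposite strand. INSIG1 held CACNCCAC at position 43, TGACG at position 57 and CCAAT at position 81, all on the opposite strand. These matches describe the letters of the windows, and binding was not measured.

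The RefSeq table held 46 promoter windows of 31 of the 36 genes, several genes having more than 1 start. CCAAT, on either strand, was in 26 of the 46 (56.5%) and in 34.6% of all 35116 windows. CACNCCAC was in 8 (17.4%) and 5.87% of all, and the longer TCACNCCAC, which contains it, in 1 (2.17%), that of SREBF2, and 1.13% of all. The windows with CACNCCAC belonged to ABCA1, ACACA, IDI1, INSIG1, SC5D, SCD and SREBF2. Of these genes ACACA, IDI1 and SC5D had higher treated means and INSIG1 and SCD lower ones, while ABCA1 and SREBF2 were not tested. The GC box GGGCGG was in 40 (87.0%) and 45.0% of all, and the E-box CACGTG in 6 (13.0%) and 7.26% of all. TGACG was in 18 (39.1%) and 24.6% of all, and AGGTCA, a half-site of nuclear receptors, in 4 (8.70%) and 13.8% of all. Windows of the same gene overlap in part, so they are not independent. The windows of all genes were not matched to the members for base content or expression. Whether any of these shares is particular to the pathway was not tested.

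In the mevalonate and isoprenoid steps 0 of 8 genes were called, and 0 had an unadjusted p under 0.05; 6 differences were below 0 and the median was -0.11. ACAT2, the thiolase that joins acetyl-CoA units, measured 14.05, 13.91 and 13.85 in control and 13.94, 13.43 and 13.59 in treated samples. HMGCS1, which makes HMG-CoA, measured 14.02, 14.19 and 13.74 in control and 13.85, 13.84 and 13.68 in treated samples. In both genes the groups overlapped, and the differences were -0.28 (standard error 0.15; limma, adjusted p = 0.439) and -0.19 (standard error 0.14; limma, adjusted p = 0.610). FDPS, the farnesyl diphosphate synthase, measured 10.50, 10.48 and 10.02 in control and 9.82, 9.95 and 10.34 in treated samples, also with overlap. Its difference was -0.30 (standard error 0.18; limma, adjusted p = 0.510). The RefSeq gene table lists pseudogenes of FDPS, and whether the probe separates them was not tested.

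The other 5 genes of these steps ranged from -0.17 to 0.20. The mevalonate kinase MVK had the widest spread of the 31 genes, with 9.56, 8.67 and 9.36 in control (9.20 ± 0.46, SD, n = 3) against 9.03 ± 0.14 (SD, n = 3) with treatment. The phosphomevalonate kinase PMVK (-0.04) and the decarboxylase MVD (-0.05) differed least. The isomerase IDI1, which readies the isoprenoid unit for chain building, and GGPS1, which makes geranylgeranyl diphosphate for protein prenylation, were the 2 genes above 0, at 0.20 and 0.08. Their treated replicate 3 was the highest of the 6 arrays in both, and their control replicate 3 the lowest.

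Squalene and sterol steps held the 2 largest differences in the lower direction of all 31 genes, though 0 of 10 were called. LSS, the lanosterol synthase that closes the sterol rings, measured 12.08, 12.00 and 12.11 in control and 11.53, 11.46 and 11.68 in treated samples. The groups were 12.06 ± 0.06 and 11.56 ± 0.11 (SD, n = 3), a ratio of treated to control of 0.705 (95% interval 0.588 to 0.844; limma, unadjusted p = 0.00148, adjusted p = 0.0542). LSS was called, still lower, in 5 of the 17 alternatives of the processing, with limma adjusted p from 0.0118 to 0.194 over all of them. Of the 5 calls, those with the background left in and in the deposited normalized table rest on nearly the same values. The call with the mean of probes took in a second LSS probe that was tested through the control group alone. CYP51A1, the lanosterol demethylase that acts on the product of LSS, measured 10.50, 10.39 and 10.30 in control and 10.08, 9.99 and 9.95 in treated samples. Its ratio was 0.763 (95% interval 0.638 to 0.913; limma, unadjusted p = 0.00719, adjusted p = 0.137).

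SQLE, the squalene epoxidase and a known control point of the pathway, measured 13.60, 13.64 and 13.65 in control and 13.43, 13.37 and 13.32 in treated samples. The groups did not overlap, and the ratio was 0.836 (95% interval 0.705 to 0.992; limma, unadjusted p = 0.0418, adjusted p = 0.325). LSS and CYP51A1 had an unadjusted p under 0.05 in 17 of 17 alternatives, SCD in 11, and SQLE and INSIG1 in 8 each. With single arrays left out, the unadjusted p of SQLE was 0.0519 to 0.0976 (limma). INSIG1 was then under 0.05 only without treated replicate 2, and SCD only without control replicate 3. HSD17B7, a ketosteroid reductase of the sterol route, measured 13.07, 13.24 and 13.20 in control and 13.32, 13.23 and 13.38 in treated samples. Its groups overlapped at a difference of 0.14 (standard error 0.12; limma, adjusted p = 0.659), and the RefSeq gene table lists pseudogenes of it too.

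The later enzymes lay on both sides of 0. The demethylation genes MSMO1 and NSDHL differed by 0.02 and -0.17, and TM7SF2, a sterol reductase, by -0.16. EBP, a sterol isomerase, differed by 0.02, the desaturase SC5D by 0.10 and DHCR7, a reductase at the end of the route, by 0.13. Their adjusted p ran from 0.606 to 0.976 (limma), and in all of them the groups overlapped.

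**Figure D2:**
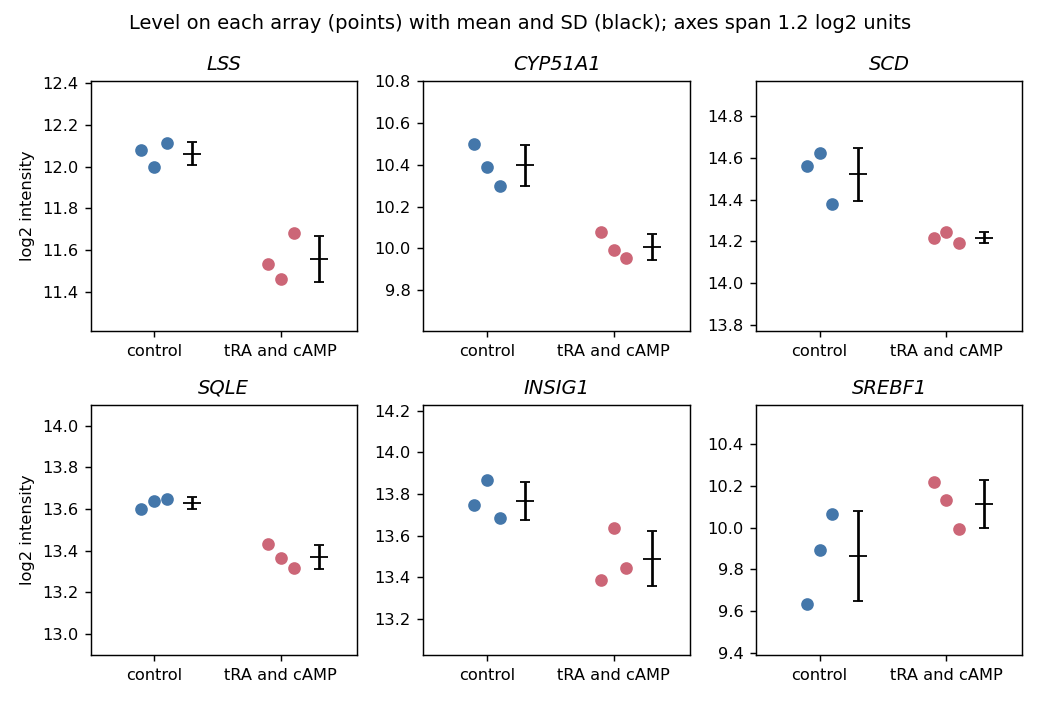
Log2 intensity on each array (points, control in blue and treated in red) with group mean and SD (black) for the 5 genes with an unadjusted p under 0.05 and for SREBF1; each vertical axis spans the same log2 range but starts at a different level. In LSS, CYP51A1, SCD, SQLE and INSIG1 every treated point lies below every control point, while the SREBF1 points overlap.

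Among regulators, 0 of 5 tested genes were called, and INSIG1 had an unadjusted p under 0.05. INSIG1, which holds SCAP in the endoplasmic reticulum and is itself an SREBP target, measured 13.75, 13.87 and 13.68 in control and 13.39, 13.64 and 13.45 in treated samples. The groups lay apart by a small margin, and the ratio was 0.826 (95% interval 0.684 to 0.998; limma, unadjusted p = 0.0480, adjusted p = 0.346). INSIG2, its relative, differed by 0.08 (standard error 0.13). SCAP, the escort of SREBP, measured 11.97, 11.97 and 11.91 in control and 11.88, 11.89 and 12.11 in treated samples, a difference of 0.01 (standard error 0.12). The 95% interval of SCAP, -0.26 to 0.27 on the log2 scale, bounds its change on either side.

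SREBF1 was the highest difference of the 31 genes, at 0.25 (standard error 0.14; limma, adjusted p = 0.474). It measured 9.64, 9.89 and 10.06 in control and 10.22, 10.13 and 9.99 in treated samples, and the groups overlapped through treated replicate 3 and control replicate 3. SREBF2 was detected on 2 control arrays and 0 treated arrays, and was not tested for that reason. Its probe measured 7.60, 7.39 and 7.22 in control and 6.84, 6.76 and 6.49 in treated samples, with all treated values below all control values. The dimmest detected probe of an array lay between 7.32 and 7.76, above every treated value of SREBF2, so no fold is given. NR1H3, a liver X receptor, differed by -0.18 (standard error 0.16; limma, adjusted p = 0.694).

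Of the uptake and transport genes 3 of 5 were tested and 0 called. SCARB1, the receptor that takes cholesterol from high-density lipoprotein, measured 11.13, 11.02 and 11.71 in control and 10.72, 11.06 and 10.95 in treated samples. Control replicate 3 was the highest of the 6 arrays, and the groups overlapped. The difference was -0.38 (standard error 0.18; limma, adjusted p = 0.398) and -0.16 without that array. NPC2, which hands cholesterol out of the lysosome, measured 14.55, 14.25 and 14.42 in control and 14.48, 14.57 and 14.78 in treated samples. NPC1, the membrane protein that receives it, measured 11.76, 11.67 and 11.91 in control and 11.91, 11.74 and 11.84 in treated samples. Groups overlapped in both, at differences of 0.20 (standard error 0.13) and 0.05 (standard error 0.12). STARD4, a carrier of sterol between membranes, was detected on 1 array of each group, at 7.95, 7.24 and 7.43 in control and 7.69, 7.21 and 6.73 in treated samples. ABCA1, the exporter that liver X receptors control, was detected on 0 arrays and so was not well above background in either group.

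Fatty acid synthesis held 5 tested genes, 0 called and 4 below 0, with a median of -0.19. SCD, which puts the double bond into saturated fatty acids, measured 14.56, 14.62 and 14.38 in control and 14.21, 14.24 and 14.19 in treated samples. The groups did not overlap, and the ratio was 0.810 (95% interval 0.676 to 0.972; limma, unadjusted p = 0.0274, adjusted p = 0.262). FASN, the fatty acid synthase, measured 14.89, 15.15 and 15.23 in control and 15.01, 15.09 and 14.61 in treated samples. Its lowest value was treated replicate 3, and the difference was -0.19 (standard error 0.16; limma, adjusted p = 0.671). ELOVL6, which lengthens the products of FASN, measured 12.24, 12.47 and 12.17 in control and 12.21, 12.04 and 12.06 in treated samples, a difference of -0.19 (standard error 0.13). ACLY, which supplies acetyl-CoA, differed by -0.15, and ACACA, the carboxylase that commits it to fatty acids, by 0.11. In treated replicate 3 all 5 genes lay below their control mean, with a median deviation of -0.33, against -0.08 and -0.05 in treated replicates 1 and 2.

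**Figure D3:**
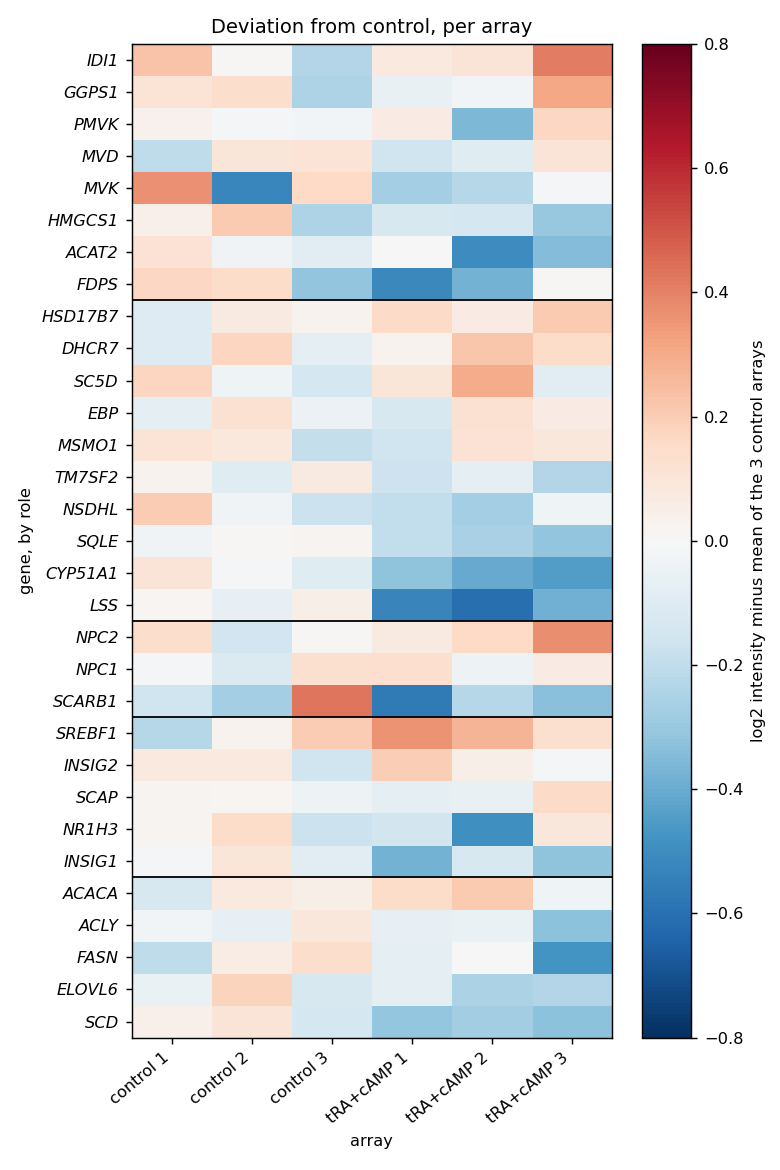
Deviation of each tested gene (rows, grouped by role) from its control mean on each of the 6 arrays (columns), in log2 units; blue is below and red above the control mean. LSS, CYP51A1, SQLE, INSIG1 and SCD are blue in all 3 treated columns, as are rows such as TM7SF2 and SCARB1, in which a control column is as blue as a treated one.

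The 34 genes had 48 probes, of which 40 were tested, and 9 genes had 2 tested probes. In a fit over all 12887 tested probes with 1 gene name, 2.23% of the probes were called, and 1 of the 40 was among them. This was the second LSS probe, which was lower with treatment (limma, adjusted p = 0.0102 over probes). It measured 8.51, 8.57 and 8.40 in control and 7.63, 7.76 and 7.82 in treated samples. It was detected on 3 control arrays and 2 treated arrays, so it was tested through the control group alone. Its treated values lay close to the level of the dimmest detected probes (7.32 to 7.76), so the size of the fitted difference, -0.75, is uncertain, and it is not used as support for the brighter probe. The brighter LSS probe had an adjusted p of 0.0666 in the same limma fit over probes.

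The probe pairs of SQLE (-0.26 and -0.31) and INSIG1 (-0.28 and -0.38) gave the same sign and similar size. So did those of SREBF1 (0.25 and 0.35), DHCR7 (0.13 and 0.16), ACLY (-0.15 and -0.23) and ELOVL6 (-0.19 and -0.21). In the fit over probes the brighter INSIG1 probe had an unadjusted p of 0.0525 (limma). The second SREBF1 probe measured 8.22, 8.13 and 8.22 in control and 8.58, 8.51 and 8.54 in treated samples, without overlap (limma, unadjusted p = 0.0111, adjusted p = 0.179 over probes). It was the only tested probe of the 40 with an unadjusted p under 0.05 in the higher direction. Over all genes tested 6.88% were higher at that level, and the share over all probes was not counted. In the lower direction these were both probes of SQLE and of LSS, the probes of CYP51A1 and SCD, and the second probes of MSMO1 and INSIG1.

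Probes disagreed in sign in 2 genes. For MSMO1 the brighter probe gave 0.02 and the other -0.30 (standard error 0.12; limma, adjusted p = 0.274 over probes). The second MSMO1 probe measured 11.48, 11.48 and 11.58 in control and 11.20, 11.31 and 11.11 in treated samples, without overlap. For ACACA the pair gave 0.11 and -0.07. The plot of probe pairs sets these values side by side.

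**Figure D4:**
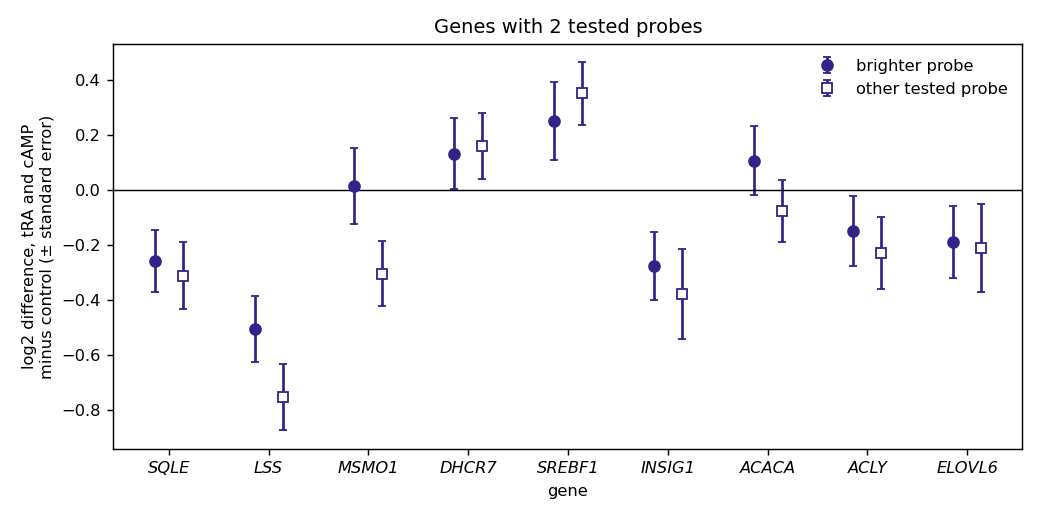
Log2 difference with its standard error for the 9 genes with 2 tested probes, the probe used for the gene (filled circles) beside the other one (open squares). The pairs agree in sign except for MSMO1 and ACACA, and the lowest point is the second LSS probe, which was detected on 2 of the 3 treated arrays.

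Beyond these 36 genes, a list of 44 others of the same pathway gave 33 tested genes. That list too was chosen with earlier results of these data known. In limma 0 were higher and 0 lower, and the median difference was 0.01. At an unadjusted p under 0.05, 2 of the 33 were higher and 0 lower, a share near the 6.88% of all genes that were higher, so the values that follow are a description. STARD3, a sterol carrier of late endosomes, differed by 0.52 (standard error 0.18; limma, unadjusted p = 0.0155, adjusted p = 0.204), and the fatty acid elongase ELOVL5 by 0.41 (standard error 0.14; limma, unadjusted p = 0.0157, adjusted p = 0.205). By group, 4 tested genes belonged to liver X receptor response, esterification and efflux, 5 to SREBP processing, 8 to fatty acid and lipid synthesis, 6 to uptake and transport and 10 to the use of isoprenoids, and 0 of the 5 oxysterol and bile acid genes were tested. NPC1L1, a sterol uptake protein of the gut, was detected on 2 control arrays and 0 treated arrays and was not tested. Named after its values were seen, it measured 7.56 ± 0.18 in control and 6.65 ± 0.06 in treated samples (SD, n = 3), the treated level being below that of the dimmest detected probe, and no fold is given.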

How the data were processed

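Total RNA of 6 HEK293 samples was labelled with biotin and hybridized to Illumina bead arrays, per the labels. The deposited intensity values are linear average bead signals without normalization. BeadStudio is the tool that the submitters' processing notes name. A detection p-value for each probe and array was deposited beside them, per the file headers. A second deposited intensity table held 1 distribution in all columns, and the authors' steps behind it are unstated. It served as an alternative. Its results were nearly those of quantile normalization with the background left in (294 genes called in both), so these alternatives are not independent.

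Background correction and normalization used the neqc function (limma 3.58.1, R 4.3.3; offset 16, negative controls inferred from detection p-values, quantile, log2). Of 48803 probes, 28098 had 1 name in the platform annotation. Testing required a detection p under 0.01 throughout 1 group or both (3 arrays each), and each gene was read from its brightest such probe. Models were fitted with lmFit and eBayes over 9944 genes without covariates. The pipeline was also run on simulated data with the same noise level for all probes and no differences between arrays. That is simpler than the real data, and no result here rests on it. Promoters came from RefSeq (GRCh38.p14), and figures were drawn with matplotlib 3.10.9.

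Members and lists were chosen with earlier results of these data known. Values on every array are given for members with an unadjusted p under 0.05 and, in each role, for the 2 with the largest difference and the 2 with the highest level. Probes of different genes are not compared in level. Alternatives covered the background correction, normalization, filter, choice of probe, a replicate block, the variance model and each array left out.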

Additional observations from a re-analysis of the deposited data

How the results depend on the processing

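The count of called members was 0 in the chosen setting and 1, lower, in 5 of the other settings run on all arrays. LSS was that gene each time: with the background left in (-0.48, adjusted p = 0.0225), with an offset of 50 (-0.50, 0.0472), in the deposited normalized table (-0.48, 0.0225), with the mean of its probes (-0.63, 0.0137) and with a robust fit that had a variance trend (-0.50, 0.0118). The background left in and the deposited normalized table gave nearly the same values, so their calls are not independent. The mean of probes took in the second LSS probe, which was tested through the control group alone. With single arrays left out the count of called members was 0 to 1, the 1 being SREBF2 without control replicate 3. SREBF2 was then tested through the 2 remaining control arrays alone and was detected on 0 treated arrays, so that count says nothing about the size of a change. Among the other genes of the pathway it was 1 with no filter on dim probes (NPC1L1) and 0 to 1 with single arrays left out, again NPC1L1, without control replicate 1. NPC1L1 too was detected on 0 treated arrays. Over all genes 255 were called, 163 without normalization between arrays, 131 with no filter and 137 to 195 with single arrays left out.

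Without normalization 43 of those 163 calls (26.4%) were higher, against 110 of 255 in the chosen setting, and the median of all genes was -0.10. The members' median was then -0.22, or -0.12 relative to all genes. The sign of the difference turned in 9 members, MVK (-0.17 in the chosen setting) being the farthest of them from 0. Without normalization GGPS1 was -0.018, MSMO1 -0.069, EBP -0.079, NPC1 -0.046, SCAP -0.088 and INSIG2 -0.037, and with the mean of probes MSMO1 was -0.14. With single arrays left out MVK ranged from -0.43 to 0.012, PMVK from -0.15 to 0.12, MVD from -0.15 to 0.0031 and GGPS1 from -0.047 to 0.15. MSMO1 then ranged from -0.080 to 0.10, EBP from -0.030 to 0.093, NPC1 from -0.0044 to 0.12, SCAP from -0.069 to 0.046 and INSIG2 from -0.0026 to 0.12. The cause was not tested. The replicate numbers were not taken to pair the samples, since same-numbered deviations from the group means correlated at 0.055, -0.047 and -0.036. With the replicate block 0 members and 194 genes in all were called, and LSS was at -0.50 (adjusted p = 0.104). The members lower at an unadjusted p under 0.05 were then LSS, CYP51A1 and SCD, 3 in place of 5. That count was 7 with the background left in, in the deposited normalized table and with the robust fit. The background left in and the deposited table are nearly the same setting.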
